A study of Mus musculus with 8 samples.

Results

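The genes described here are the machinery of DNA replication and the enzymes that supply it with nucleotides, followed over 4 groups of mouse spleen B cells. They were chosen by name, as 39 genes, and found as array probe sets that carry only that gene's symbol. Of these, 38 genes were found with 40 probe sets, among 21515 genes in all, and Rfc4 is not analysed here. No filter on low values was applied, so all 38 were tested.

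Each group holds 2 arrays, labelled as biological replicates, and nothing in the labels says how many mice stand behind an array or how old they were. The LMP1 group came from female (C57BL6XBALBc) F1 mice of genotype LMP1flSTOP/YFPflSTOP, and its YFP control group from females of the same cross carrying YFPflSTOP/+. In both, a stop cassette was removed in isolated cells with TAT-Cre, a cell-permeable recombinase, and cells positive for the YFP reporter were sorted 2 days later. LMP1 is an Epstein-Barr virus membrane protein that is active without any ligand and shares adaptors with CD40, the receptor through which B cells receive T cell help. The CD40-activated group came from male C57BL6 mice (B6/J) and spent 2 days in culture with anti-CD40, while the naive control group from the same kind of mice went straight into RNA preparation. All cells had first been enriched from spleen by removing cells that carry CD43, and no group here was cultured for 2 days with neither TAT-Cre nor the antibody. The labels mark the 4 arrays of LMP1 and its control as taken over from earlier work, so between that set and the CD40-activated and naive arrays strain, sex, handling and set of arrays cannot be told apart.

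Replication is prepared when the origin recognition complex, Cdc6 and Cdt1 load the ring-shaped MCM helicase onto origins, a step called licensing. Cdc45, the GINS complex and Mcm10 then switch the helicase on, primase and polymerase alpha start each strand, and the polymerases delta and epsilon extend it, held by the sliding clamp PCNA. Transcription of most of these genes is driven by the E2F factors, which the pocket proteins Rb1, Rbl1 and Rbl2 restrain in resting cells, and spleen B cells are mostly at rest until they are activated. Values are log2 expression levels per gene, where a difference of 1 is a factor of 2, and because arrays weigh a whole population, more cells in S phase and more RNA per cell cannot be told apart.

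The replication genes stood highest in LMP1 cells. Averaged over the 38 genes, the level was 9.63 and 9.61 on the LMP1 arrays, against 7.87 and 7.67 in YFP control. It was 8.67 and 8.66 in CD40-activated cells, against 7.38 and 7.03 in naive control. For all 38 genes both LMP1 arrays lay above all 6 other arrays, which was the case for 17.3% of all genes. The group means ran LMP1, CD40-activated, YFP control, naive control from high to low for 30 of the 38.

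**Figure D1:**
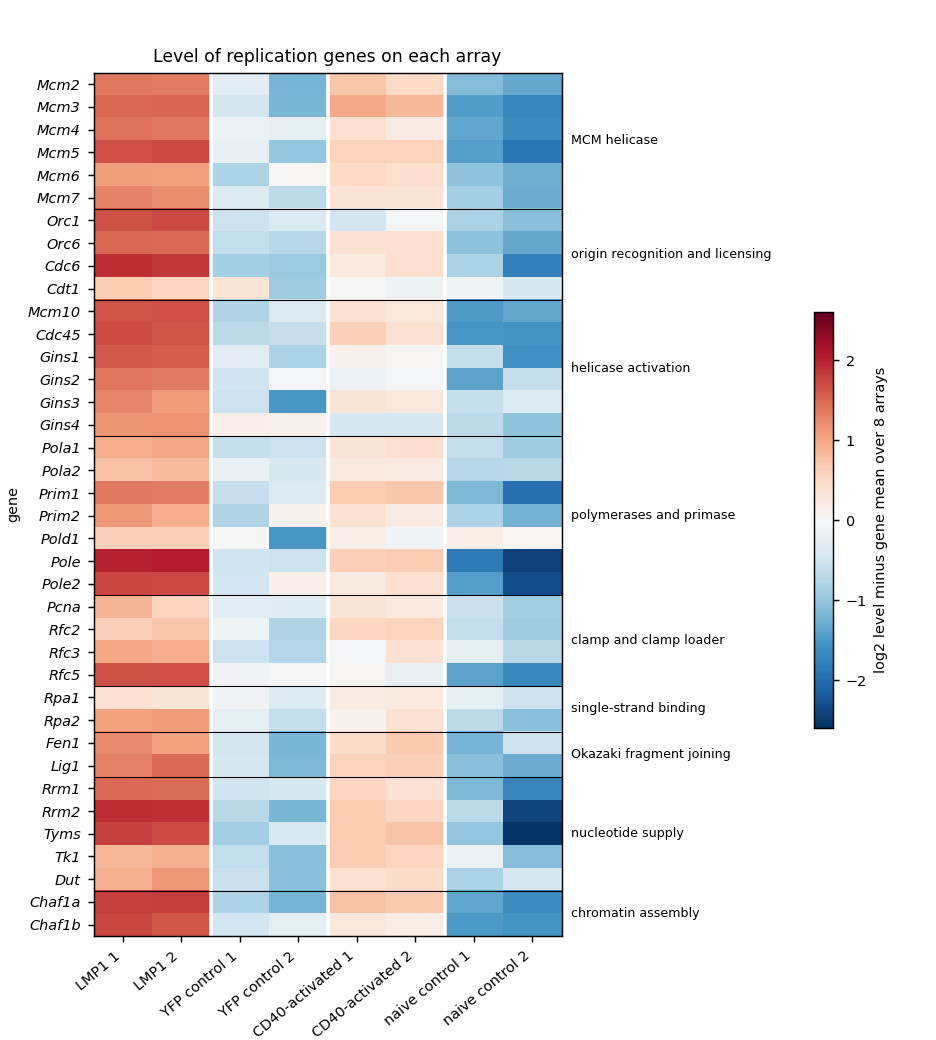
Level of each of the 38 replication genes (rows, grouped by role) on each of the 8 arrays (columns), as the log2 level minus that gene's mean over the 8 arrays. Both LMP1 columns are above the gene mean in every row, and the naive control columns are lowest for 32 genes by group mean.

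The effect of LMP1 was read against the YFP control, which matches it in cross, sex, recombinase and sort. Of the 38 genes 37 rose and 0 fell (limma, adjusted p under 0.05 over all 21515 genes), and 36 rose by at least 1 log2. Over all genes tested 14.9% were called higher and 8.31% lower, and 8.68% were called higher by at least 1 log2. The median change of the 38 genes was 1.89, a 3.71-fold higher level, against a median of -0.08 over all genes. The LMP1 and YFP control arrays did not overlap for any of the 38, with LMP1 above for 27.5% of all genes. Changes ran from 0.60 for Rpa1 to 2.86 for Rrm2, and the 1 gene that did not pass was Cdt1.

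The effect of CD40 was read against naive cells, and culture goes along with the antibody in it. Here 33 of the 38 genes rose and 0 fell, 29 of them by at least 1 log2, where 11.0% of all genes were called higher, 6.65% lower and 5.35% higher by at least 1 log2. At an unadjusted p under 0.05 there was likewise no lower replication gene in either comparison. The median change was 1.47, or 2.76-fold, against -0.05 over all genes. The 5 that did not pass were Cdt1, Gins3, Gins4, Pold1 and Rfc3. The 33 genes that rose had all risen with LMP1 as well, but there was little room to differ, since 37 of the 38 had. Across the 38 genes, which are not independent replicates, the LMP1 change and the CD40 change had a Pearson correlation of 0.68. The comparisons share no arrays, but all 8 arrays were normalized together.

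**Figure D2:**
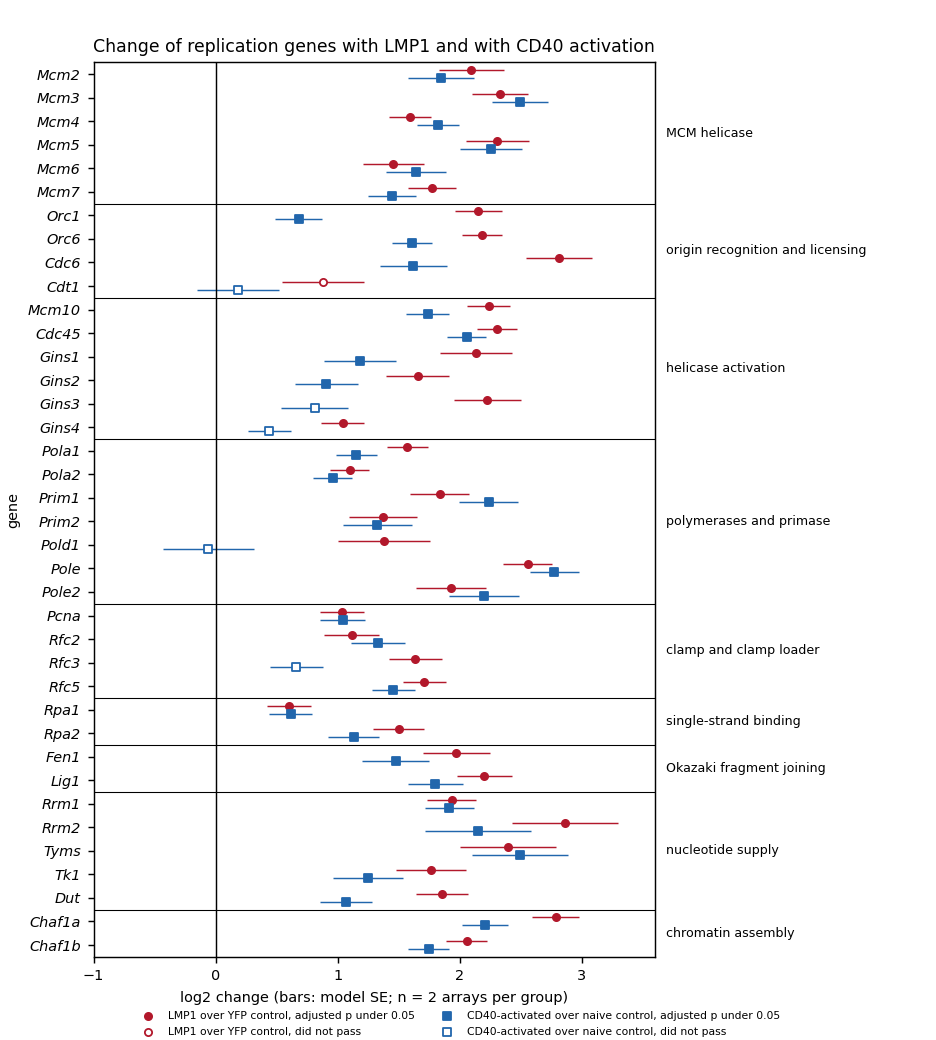
Log2 change of each replication gene with LMP1 (red circles, LMP1 over YFP control) and with CD40 activation (blue squares, CD40-activated over naive control), with standard errors from the model and n = 2 arrays per group. Filled symbols passed at an adjusted p under 0.05. With LMP1 37 of 38 passed, with CD40 activation 33, and every symbol but that of Pold1 with CD40 activation lies right of 0.

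Since these genes moved together, their promoters were read for the E2F motif, taken as any of the 4 words TTTCCCGC, TTTCGCGC, TTTGCCGC and TTTGGCGC on either strand. The sequences are those of RefSeq on GRCm38.p6, from 250 bases before to 50 bases after each annotated start. They were at hand for 31 of the 38 genes, all but Mcm4, Gins1, Gins2, Gins4, Pole, Prim2 and Rfc2. A word was present for 13 of the 31 genes (41.9%), against 2.6% of all 27025 genes with a promoter and 3.42% of the protein-coding genes tested. The 13 genes were Cdc6, Cdt1, Gins3, Lig1, Mcm3, Mcm5, Mcm6, Mcm7, Orc1, Pola1, Pold1, Pole2 and Rfc3. For 8 of them a word lay upstream of the start. The stretches around those words are shown 5′ to 3′ on the gene's own strand, with the words in capitals, to let the shared letters be seen beside the changes given further on.

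Mcm5, chr8:75109341-75109382, plus strand: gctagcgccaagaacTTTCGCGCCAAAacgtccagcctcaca
Mcm6, chr1:128359730-128359830, minus strand: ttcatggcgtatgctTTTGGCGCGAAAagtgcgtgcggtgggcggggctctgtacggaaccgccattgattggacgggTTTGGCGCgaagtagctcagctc
Mcm7, chr5:138172026-138172063, minus strand: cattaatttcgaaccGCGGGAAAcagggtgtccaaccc
Orc1, chr4:108579412-108579449, plus strand: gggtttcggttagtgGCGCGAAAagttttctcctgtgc
Cdc6, chr11:98907998-98908035, plus strand: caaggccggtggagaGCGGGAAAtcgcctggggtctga
Gins3, chr8:95633503-95633540, plus strand: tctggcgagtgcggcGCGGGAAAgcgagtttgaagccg
Pola1, chrX:93632271-93632308, minus strand: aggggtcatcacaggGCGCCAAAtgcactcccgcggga
Rfc3, chr5:151651209-151651233, minus strand: agtgacgtcgcacgcTTTCGCGCtc

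In Mcm5 and in the distal pair of Mcm6, words on opposite strands overlap and form 1 run of capitals. Capitals that begin with GCG are words read on the opposite strand. The first base of the upstream word nearest the start lay at -27 in Orc1, -41 in Gins3 and -10 in Rfc3, counted from the annotated start. The 13 genes with a word had a median change of 1.93 with LMP1 and 1.45 with CD40 activation, and the 18 without it 1.95 and 1.67. CCAAT, the box bound by NF-Y, was found for 61.3% of the replication genes, 41.1% of all genes and 41.9% of the protein-coding genes tested. For the GC box GGGCGG the shares were 74.2%, 38.2% and 52.0%. The word TTTGAA, core of the cell cycle homology region, was found for 4 of the 31 genes. This is 12.9%, against 20.2% of all and 17.5% of the protein-coding genes tested. The median GC content was 57.7% in these promoters, 52.7% in all and 57.3% in those of the protein-coding genes tested. A matching word is a description of the sequence and shows no binding.

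The subunits of the MCM helicase, Mcm2 to Mcm7, rose in both comparisons for all 6 genes, with median changes of 1.94 with LMP1 and 1.83 with CD40 activation. Mcm5 stood at 11.26 and 11.3 in LMP1 cells, against 9.37 and 8.58 in YFP control. In CD40-activated cells it was at 10.18 on both arrays, against 8.16 and 7.69 in naive control. The groups of each pair were thus at least 1.89 apart with LMP1 and 2.02 apart with CD40 activation, and the model put the changes at 2.31 ± 0.26 (SE; adjusted p = 1.9e-04) and 2.26 ± 0.26 (adjusted p = 3.89e-04). Mcm3 was at 10.57 and 10.59 in LMP1 cells, against 8.6 and 7.9 in YFP control, a change of 2.33 ± 0.23. Its levels were 10.07 and 9.94 in CD40-activated cells, against 7.63 and 7.39 in naive control, a change of 2.50 ± 0.23. Mcm2 rose by 2.10 with LMP1 and by 1.85 with CD40 activation, Mcm7 by 1.78 and 1.45, Mcm4 by 1.59 and 1.82, and Mcm6 by 1.46 and 1.64. Mcm3, Mcm4 and Mcm6 thus had a CD40 change above their LMP1 change, and for no subunit did the difference pass the test.

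The loaders of the helicase were less even. Orc1, the largest subunit of the origin recognition complex, was at 8.22 and 8.29 in LMP1 cells, against 6.02 and 6.19 in YFP control. It was at 6.09 and 6.51 in CD40-activated cells, against 5.75 and 5.49 in naive control. The LMP1 arrays were more than 1.7 above every other array, while the gap between CD40-activated and naive arrays was 0.34. The changes were 2.15 ± 0.19 (adjusted p = 6.03e-05) and 0.68 ± 0.19 (adjusted p = 0.0369), and the second passed under 8 of 15 alternative settings. Cdc6, the ATPase that brings the helicase to origins, was at 9.49 and 9.41 in LMP1 cells, against 6.68 and 6.6 in YFP control, and rose by 2.81 ± 0.27. Its CD40-activated levels were 7.82 and 7.99, against 6.77 and 5.8 in naive control, a rise of 1.62 ± 0.27. Orc6, a further subunit of the complex, rose by 2.18 with LMP1 and 1.61 with CD40 activation. Cdt1, the partner of Cdc6 that geminin inhibits, was at 9.0 and 8.9 in LMP1 cells, against 8.71 and 7.43 in YFP control. The YFP control arrays were 1.28 apart and the LMP1 arrays 0.10 apart, and its change of 0.88 ± 0.34 did not pass (adjusted p = 0.0923). It passed under 2 of 15 alternatives, one of them without YFP control 1. With CD40 activation Cdt1 was at 8.34 and 8.22, against 8.26 and 7.94 in naive control, groups that overlapped (0.18 ± 0.34, adjusted p = 0.768).

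Factors that activate the helicase rose with LMP1 for 6 of 6 genes and with CD40 activation for 4 of 6. Cdc45, which rides with the helicase at the fork, was at 9.07 and 9.01 in LMP1 cells, against 6.69 and 6.78 in YFP control, a rise of 2.31 ± 0.16. Its levels were 8.0 and 7.78 in CD40-activated cells, against 5.84 and 5.83 in naive control, a rise of 2.06 ± 0.16. Mcm10, which helps Cdc45 onto the helicase, rose by 2.24 and 1.74. The 4 subunits of GINS, the ring that completes the active helicase, moved less evenly than the MCM subunits. Gins3 was at 9.02 and 8.86 in LMP1 cells, against 7.19 and 6.24 in YFP control (2.23 ± 0.27), and at 8.1 and 8.04 in CD40-activated cells, against 7.13 and 7.39 in naive control (0.81 ± 0.27, adjusted p = 0.0696). Gins4 was at 9.99 and 10.0 in LMP1 cells, against 8.97 and 8.94 in YFP control (1.04 ± 0.17). It was at 8.41 on both CD40-activated arrays, against 8.16 and 7.78 in naive control (0.44 ± 0.17, adjusted p = 0.118). For both genes the CD40-activated arrays lay above the naive ones without passing. Gins1 and Gins2 rose by 2.14 and 1.66 with LMP1, and by 1.18 and 0.91 with CD40 activation, where the call of Gins1 held under 12 of 15 alternatives and that of Gins2 under 8.

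Polymerases and primase rose for 7 of 7 genes with LMP1 and for 6 of 7 with CD40 activation. Pole, the catalytic subunit of the leading-strand polymerase epsilon, was at 10.21 and 10.24 in LMP1 cells, against 7.69 and 7.65 in YFP control. It was at 8.82 and 8.86 in CD40-activated cells, against 6.36 and 5.77 in naive control. The rises were 2.56 ± 0.20 (adjusted p = 3.23e-05) and 2.78 ± 0.20 (adjusted p = 3.91e-05), the second being the highest CD40 change among the 38 genes. Pole2, its accessory subunit, rose by 1.93 with LMP1 and 2.20 with CD40 activation, and the primase subunit Prim1 by 1.84 and 2.24. Prim2, the other primase subunit, rose by 1.37 and 1.33, and Pola1 and Pola2 of polymerase alpha by 1.57 and 1.10 with LMP1 and by 1.15 and 0.96 with CD40 activation. Pold1, the catalytic subunit of the lagging-strand polymerase delta, differed from these. It was at 9.27 and 9.26 in LMP1 cells, against 8.63 and 7.14 in YFP control (1.38 ± 0.38, adjusted p = 0.0238). In CD40-activated cells it was at 8.82 and 8.56, against 8.8 and 8.7 in naive control, groups that overlapped (-0.06 ± 0.38, adjusted p = 0.939). The LMP1 call of Pold1 was lost without either LMP1 array and when only LMP1 and YFP control were fitted.

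The clamp, its loader and the proteins that coat and join DNA had median changes with LMP1 of 1.38 (clamp and loader), 1.05 (coating) and 2.09 (joining). Pcna was at 11.8 and 11.5 in LMP1 cells, against 10.63 and 10.6 in YFP control, and at 11.25 and 11.17 in CD40-activated cells, against 10.33 and 10.01 in naive control. None of these groups overlapped, and the rises were almost equal, at 1.04 ± 0.18 with LMP1 and 1.04 ± 0.18 with CD40 activation. Of the clamp loader subunits, Rfc2, Rfc3 and Rfc5 rose by 1.12, 1.64 and 1.71 with LMP1. With CD40 activation Rfc2 rose by 1.33 and Rfc5 by 1.46, and Rfc3 was at 0.66 without passing (adjusted p = 0.0639). Rpa1 and Rpa2, which coat single-stranded DNA, rose by 0.60 and 1.5 with LMP1 and by 0.62 and 1.13 with CD40 activation. Rpa1 was at 9.49 and 9.42 in LMP1 cells, against 8.98 and 8.73 in YFP control, and its call was lost under 7 of 15 alternatives. The flap nuclease Fen1 and the ligase Lig1, which join Okazaki fragments, rose by 1.97 and 2.20 with LMP1 and by 1.48 and 1.80 with CD40 activation.

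All 5 genes of nucleotide supply rose in both comparisons. Rrm2, the regulated subunit of ribonucleotide reductase, was at 10.26 and 10.24 in LMP1 cells, against 7.62 and 7.16 in YFP control. It was at 9.0 and 8.89 in CD40-activated cells, against 7.66 and 5.93 in naive control. Its LMP1 rise of 2.86 ± 0.43, or 7.26-fold, was the highest among the 38, and its CD40 rise of 2.15 ± 0.43 rested on naive arrays 1.73 apart. Tyms, thymidylate synthase, was at 9.49 and 9.39 in LMP1 cells, against 6.79 and 7.3 in YFP control (2.40 ± 0.39). It was at 8.37 and 8.45 in CD40-activated cells, against 6.68 and 5.16 in naive control (2.49 ± 0.39). Rrm1, the large subunit of ribonucleotide reductase, rose by 1.94 and 1.92, the salvage kinase Tk1 by 1.77 and 1.25, and Dut, which removes dUTP, by 1.86 and 1.07. Both measured subunits of the chromatin assembly factor that places histones on new DNA rose too, Chaf1a by 2.79 with LMP1 and 2.21 with CD40 activation, and Chaf1b by 2.06 and 1.75.

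Whether the LMP1 change differed from the CD40 change was tested directly, as the difference of the changes. The controls are unlike, as YFP control cells had TAT-Cre, 2 days of culture and a sort, and naive cells were not cultured. What separates these controls enters the difference and cannot be told apart from the stimulus. For YFP control over naive control the MCM subunits had a median of 0.76, and Pold1 and Gins3 were at -0.87 and -0.55 without passing. Only Orc1 passed, with a difference of 1.47 ± 0.27 (95% interval 0.86 to 2.08, adjusted p = 0.0101), where 4.2% of all genes were called in that direction and 4.12% in the other. Without either LMP1 array or without CD40-activated 1 it did not pass, with a difference between 1.24 and 1.68 over the alternatives and a highest adjusted p of 0.0618. At an unadjusted p under 0.05 there were 9 of the 38 genes, all with the larger change in LMP1, where 22.3% of all genes were past that limit in either direction. The count is thus near the share over all genes, which was not split by direction, and is not read as a trait of replication genes. These 9 were Orc1, Pold1, Gins3, Cdc6, Rfc3, Gins1, Dut, Gins4 and Orc6. Gins3, with a difference of 1.42 (0.55 to 2.28), had an adjusted p of 0.0524, and Cdc6, at 1.19 (0.33 to 2.05), one of 0.093. The median difference was 0.95 over the 4 loaders of the helicase, 0.68 over the 6 factors that activate it and -0.06 over the 6 MCM subunits. The other roles lay between, at 0.515 (nucleotide supply), 0.447 (joining), 0.445 (chromatin assembly), 0.178 (coating), 0.125 (clamp and loader) and 0.045 (polymerases and primase). For the MCM subunits the intervals still allow a difference, such as -0.76 to 0.86 for Mcm5 and -0.78 to 0.32 for Mcm4. Over the 38 genes the median distance from the estimate to either end of the interval was 0.70. The number of the 38 genes that passed moved when single arrays were left out. The number over all genes moved as well, so this is not read as a trait of replication genes.

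**Figure D3:**
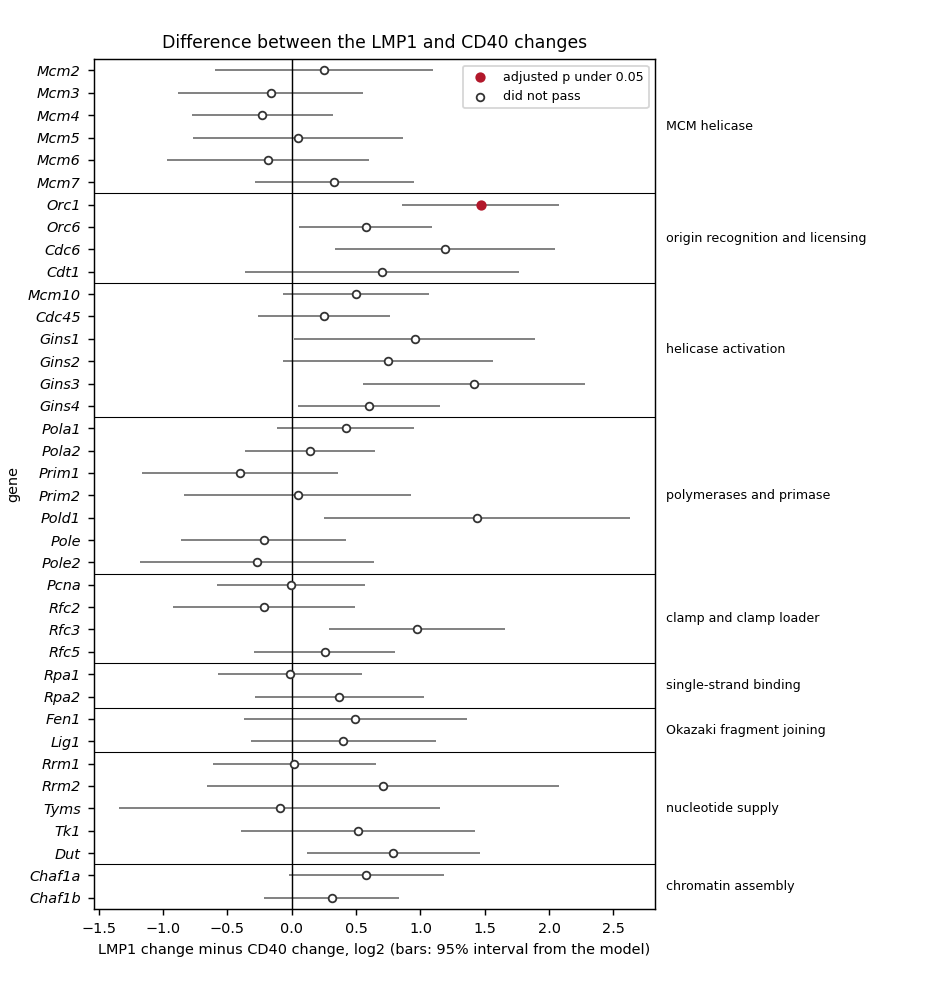
Difference between the LMP1 change and the CD40 change of each replication gene (log2), with 95% intervals from the model. The point of Orc1 at 1.47 is the only one that passed at an adjusted p under 0.05, and 29 of the 38 intervals span 0.

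Set directly against CD40-activated cells, LMP1 cells had the higher mean for all 38 genes, with no overlap of arrays for any, where 32.6% of all genes had LMP1 above without overlap. The test called 22 of the 38 higher and 0 lower, against 9.66% of all genes called higher and 5.17% lower, with a median difference of 0.88 against 0.00 over all genes. Orc1 (1.96), Rfc5 (1.74), Gins4 (1.59) and Cdc6 (1.55) had the highest differences. Rfc2 (0.11 ± 0.22, adjusted p = 0.846), Rpa1 (0.16 ± 0.18, adjusted p = 0.688) and Tk1 (0.30 ± 0.29, adjusted p = 0.62) had the lowest. Factors that activate the helicase were higher in LMP1 cells for 5 of 6 genes, with a median of 1.40, and nucleotide supply for 1 of 5, Rrm1, with a median of 1.00. Rrm2 (1.31) and Tyms (1.03) had differences above that of Rrm1 without passing. Their naive arrays, outside this comparison, were 1.73 and 1.52 apart and enter the shared spread. With only these 2 groups fitted Rrm2, Tyms and Dut passed too, and Tk1 did not. The count of 22 was 35 when only these 2 groups were fitted. It was 12 and 11 without LMP1 1 and LMP1 2, and 13 and 11 without CD40-activated 1 and CD40-activated 2. Strain, sex, sort, TAT-Cre and set of arrays differ between these groups as well and cannot be told apart from the stimulus.

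YFP control cells, which were cultured but received neither LMP1 nor antibody, were set against naive cells to see what separates the controls. Culture, TAT-Cre, sort, strain, sex and set of arrays all differ between these groups and cannot be told apart. Of the 38 genes 12 were higher in YFP control and 0 lower, against 10.9% of all genes called higher and 7.59% lower, and the count was 7 when only these groups were fitted. The median difference was 0.53, against 0.01 over all genes. Pole2 (1.68 ± 0.29), Pole (1.61 ± 0.20), Rfc5 (1.49 ± 0.17) and Mcm4 (1.31 ± 0.17) led, and no gene of licensing and neither Fen1 nor Lig1 passed. Mcm4 was at 9.33 and 9.25 in YFP control, against 8.13 and 7.83 in naive control. At an unadjusted p under 0.05 Pold1 was lower (-0.87, adjusted p = 0.141). Gins3 was at -0.55 and Cdt1 at -0.03. Pold1, Gins3 and Cdt1 were all higher on YFP control 1 than on YFP control 2. Without YFP control 1 their differences were -1.61, -1.02 and -0.67.

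CD40-activated cells were higher than the cultured YFP control for 25 of 38 genes and lower for 0, against 7.75% of all genes called higher and 6.06% lower, with a median difference of 0.93 and -0.05 over all genes. All 5 genes of nucleotide supply were among them, with Rrm2 at 1.56 and Tk1 at 1.47, and both Okazaki fragment genes, with Lig1 at 1.43 and Fen1 at 1.41. Mcm3 (1.76) and Chaf1a (1.73) were highest. Gins4 (-0.55 ± 0.17, adjusted p = 0.0682), lower at an unadjusted p under 0.05, and Rfc5 (-0.03 ± 0.17, adjusted p = 0.941) were not higher, although both were higher in YFP control than in naive cells. The count of 25 fell to 8 without CD40-activated 1 and to 5 without CD40-activated 2. This comparison also crosses strain, sex and set of arrays. It shares its arrays with the comparisons before it, so their values are set side by side and not counted as agreement.

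The control arrays were uneven, over all genes and for these. Over 1 log2 apart were 950 of all genes in YFP control and 364 in naive control, against 14 in LMP1 and 34 in CD40-activated. LMP1 arrays differed by at most 0.30 for any of the 38 genes and CD40-activated arrays by at most 0.45, YFP control arrays by up to 1.49 (Pold1) and naive control arrays by up to 1.73 (Rrm2). Naive control 1 was above naive control 2 for 32 of the 38 genes, with a median difference of 0.30, while the median over all genes was 0.01. Gins1 lay at 5.45 and 4.47 on the naive arrays, below the median gene of each, and 5 of the 38 genes lay below that median on naive control 2.

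**Figure D4:**
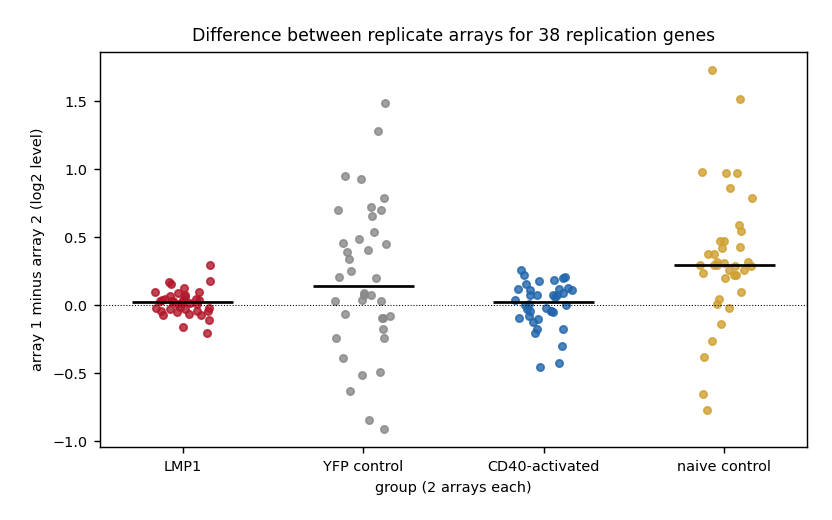
Array 1 minus array 2 of each group for each of the 38 replication genes (points, log2 level), with the median as a bar. LMP1 and CD40-activated points lie within 0.45 of 0, and those of naive control have a median of 0.30 and reach 1.73.

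Markers of erythroid, T and NK cells stood apart in the naive group. Of 9 monocyte and macrophage markers 3 were lower and 1 higher in CD40-activated than in naive cells, and of 7 neutrophil markers 1 was lower. The 6 B cell markers measured, among them Cd79a, Ms4a1 and Pax5, averaged 10.77 to 11.81 on all arrays, and 4 of the 6 were lower in LMP1 than in YFP control, with means of 10.77 and 10.80 against 11.81 and 11.61. Erythroid markers were lower in CD40-activated than in naive cells for 6 of 6 genes. They averaged 5.0 and 5.03 per gene in log2, against 8.605 and 7.16 on naive control 1 and 2. Summed levels given here add up the log2 levels of a list's genes, so their ratios are not fold changes. For the erythroid markers the sum was at most 30.19, against 42.97 to 51.63. Naive control 1 had the higher of these sums, with the red cell anion exchanger Slc4a1 at 11.15 against 9.39 on naive control 2. T cell markers were lower for 6 of 6 genes (summed level 32.77 to 35.51, against 50.42 to 51.44) and NK cell markers for 4 of 6 (27.2 to 27.6, against 38.59 to 42.33). In YFP control the sums were 30.02 to 31.35 for the erythroid markers and 32.09 to 35.3 for those of T cells, near those of CD40-activated cells. The part of these cells in the naive levels of the replication genes was not tested. Both naive arrays had the higher erythroid, T and NK cell sums, so leaving out 1 of them does not take this signal away. Between LMP1 and YFP control 0 of 6 erythroid, 0 of 6 NK cell and 0 of 7 neutrophil markers were called, and of 6 T cell markers 1 fell, Cd3g (-1.13). Of 9 monocyte and macrophage markers 2 fell, Adgre1 (-2.02) and Lyz2 (-1.91), and their summed level was 46.43 to 47.53 in LMP1 cells, against 50.66 to 53.54 in YFP control. Of 6 plasmablast markers 2 fell, Jchain (-3.47) and Sdc1 (-0.91), and 1 rose, Irf4 (0.78), with a summed level of 45.34 to 45.83, against 48.45 to 50.46. The part of these cells in the LMP1 changes of the replication genes was not tested. All single markers given here by name with a value were picked out after their values were seen.

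Among replication genes outside the 38 most calls were in the same direction. Of 28 other replication factors 22 rose and 0 fell with LMP1, and 17 rose and 1 fell with CD40 activation, with a median change of 1.27 with LMP1. Tipin (3.0 and 1.91), of the fork protection complex, Ticrr (2.57 and 2.99), which helps load Cdc45, Atad5 (2.52 and 1.73), which unloads the clamp, and the nuclease Dna2 (2.42 and 0.91) had the highest LMP1 changes. By the test of the difference, the LMP1 change was above the CD40 change for 4 of the 28 and below it for 0. Over all genes these shares were 4.2% and 4.12%. Dna2 was among the 4 (difference 1.51, adjusted p = 0.00609). Among those with the lowest LMP1 changes, Pold4 (-0.60), Donson (-0.22), Orc3 (-0.05) and Orc4 (0.12) did not pass, and Donson fell with CD40 activation (-1.43).

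Of 20 other genes of nucleotide metabolism 15 rose and 3 fell with LMP1, and 13 rose and 3 fell with CD40 activation. Ppat (2.37 and 1.35) and Gart (2.30 and 1.57) of purine synthesis and Cad (2.34 and 1.25) and Umps (2.28 and 0.97) of pyrimidine synthesis led with LMP1. By the test of the difference, the LMP1 change was above the CD40 change for 5 of the 20 and below it for 1. Over all genes these shares were 4.2% and 4.12%. Umps was among the 5 (difference 1.31, adjusted p = 0.00649). Samhd1, which destroys deoxynucleotides, fell in both (-1.27 and -1.54), as did the CTP synthase Ctps2 (-1.38 and -1.08), while its paralogue Ctps, named after its values were seen, rose (2.18 and 1.07). Tk2, the mitochondrial thymidine kinase, fell with LMP1 (-1.87), and with CD40 activation it was at -0.44 without passing. Rrm2b, the reductase subunit that p53 induces, did not pass in either (-0.54 and -0.49).

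Among 12 E2F factors, partners and pocket proteins 7 rose and 1 fell with LMP1, and 4 rose and 2 fell with CD40 activation. Tfdp1, the partner of E2F factors (1.97 and 2.68), E2f1 (1.78 and 1.03) and E2f3 (1.6 and 2.14) rose in both, and E2f8 rose with LMP1 (1.72) and was at 1.55 without passing with CD40 activation. The pocket protein gene Rb1 fell with LMP1 (-1.57) and was at 0.17 with CD40 activation without passing. This difference between the responses was the only 1 of the 12 that passed (-1.74, adjusted p = 0.00205). Rbl2 (-0.64) and the E2F partner Tfdp2 (-1.73) fell with CD40 activation, and were at -0.49 and 0.19 with LMP1 without passing. Of 10 genes of S phase entry and histone supply 9 rose and 0 fell with LMP1, and 8 rose and 1 fell with CD40 activation. Cdc25a, the phosphatase that activates Cdk2, rose by 2.33 and 1.92, the histone chaperone Nasp by 2.19 and 0.94, and Ccne1, encoding cyclin E1, by 1.25 and 1.39. The difference between the responses passed for 1 of the 10, Nasp (1.255, adjusted p = 0.0236). The inhibitor gene Cdkn1b fell with CD40 activation (-1.53) and was at -0.34 with LMP1 without passing.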

How the data were processed

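The data came from 4 groups of 2 Affymetrix arrays each. The deposited log2 values were produced by the authors with RMA in oligo, as named without versions per the submitters' processing notes. Array medians lay between 5.52 and 5.68. Of 25349 probe sets, 22225 matched 1 gene symbol, 616 several and 2508 none in the platform's table. Only probe sets with 1 symbol were kept. Where a gene had more than 1, as 640 genes did, the probe set with the highest mean level stood for it. Precision is limited by the 2 arrays in each group.

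One model of 4 group means was fitted to all 8 arrays by the lmFit and eBayes functions of limma 3.58.1 under R 4.3.3 (4 residual and 5.75 prior degrees of freedom), with two-sided p-values adjusted by Benjamini-Hochberg over 21515 genes and a threshold of 0.05. Errors beside changes are model standard errors. The procedure was tested on simulated data. The replication genes, the further gene lists and the rule for named genes (every replication gene, and up to 4 genes at each end of the 4 further pathway lists) were chosen with earlier results of these data known. P-values measure the spread between these arrays only. Alternatives were trend and robust eBayes, only the groups compared, dim genes left out, array medians subtracted, quantile normalization within each set, the mean of probe sets, the replicate number as a block, and each array left out.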

Additional observations from a re-analysis of the deposited data

Results flagged for a closer look

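Orc1 was the replication gene whose LMP1 change and CD40 change differed by the test of the difference itself. The difference was 1.47 log2 (SE 0.27, adjusted p = 0.0101), with changes of 2.15 with LMP1 and 0.68 with CD40 activation. The controls behind these changes are unlike, and what separates them enters this difference. It kept its direction under all 14 alternatives and passed under 11 of them, and it did not pass without LMP1 1, without LMP1 2 or without CD40-activated 1. The difference ranged between 1.24 and 1.68 over these alternatives.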

How the results depend on the processing

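No replication gene changed direction in a comparison where it was called, under any alternative run. The counts of replication genes called higher with LMP1 over YFP control and with CD40-activated over naive control stayed within 1.5 times, and ranged between 34 and 38 and between 23 and 34 with single arrays left out. For LMP1 over CD40-activated the count was 35 with only these groups and ranged between 11 and 30 with single arrays left out. For YFP control over naive control it was 7 with only these groups and ranged between 10 and 16. For CD40-activated over YFP control it ranged between 5 and 24. For the difference of changes it was 2 with dim genes left out and ranged between 0 and 7. Single calls lost under at least 1 alternative were those of Prim2, Pold1, Rfc2 and Rpa1 with LMP1 and of Orc1, Gins1, Gins2, Prim2, Rpa1, Rpa2, Fen1, Rrm2, Tk1 and Dut with CD40 activation. The cause of these lost calls was not tested.

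Over all genes, called genes with only the groups compared were 6360 in place of 3191 for LMP1 over CD40-activated, 1537 in place of 3986 for YFP control over naive control and 1667 in place of 2970 for CD40-activated over YFP control. With single arrays left out they ranged between 2647 and 7090 (LMP1 over YFP control), 1576 and 5631 (CD40-activated over naive control), 1275 and 4735 (LMP1 over CD40-activated), 2695 and 5955 (YFP control over naive control), 843 and 5471 (CD40-activated over YFP control) and 707 and 4199 (difference of changes). A group left with 1 array is assumed to vary like the others. Quantile normalization within each set gave 52.1% of calls higher in place of 64.2% for LMP1 over YFP control, 52.6% in place of 62.4% for CD40-activated over naive control and 41.4% in place of 56.1% for CD40-activated over YFP control. With it the replication counts were 36, 31 and 17, and Gins4 was called lower in the last (-0.82), as it was without either naive array (-0.55). With array medians subtracted, 74.3% of calls were higher for CD40-activated over naive control. With the replicate number as a block the replication counts were 38, 33, 20, 13, 22 and 1, in the order of the comparisons above. With the block Cdt1 passed with LMP1 (0.88, adjusted p = 0.0491). The labels do not say that equal numbers share a mouse or day, and deviations of equally numbered arrays correlated between -0.10 and 0.07.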

Other observations

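Dut and Rrm2 have a second, dimmer probe set each. That of Dut was at 6.63 and 6.22 in LMP1 cells, against 5.34 and 5.22 in YFP control, and at 5.96 and 6.38 in CD40-activated cells, against 5.44 and 4.87 in naive control. That of Rrm2 was at 5.09 and 5.16 in LMP1 cells, against 4.21 and 3.92 in YFP control, and at 4.79 and 5.11 in CD40-activated cells, against 4.84 and 4.45 in naive control, where the arrays overlap. All 8 values of the Rrm2 probe set lie below the median of their array, and it was not tested on its own.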
